A study of Mus musculus with 9 samples.

Results

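The genes described here are 10 genes of the NRF2 system and of antioxidant defense, taken by their symbols from the 51912 genes of the deposited table of mouse liver RNA. They are *Nfe2l2* and *Keap1*, which encode the transcription factor NRF2 and its inhibitor, the NRF2 targets *Gclc*, *Gclm*, *Txnrd1*, *Srxn1* and *Nqo1*, and the basal antioxidant enzymes *Sod1*, *Cat* and *Gpx1*. Each symbol had 1 row in the table, and all 10 genes passed the filter on low values. RNA had been sequenced from the livers of 9 fasted mice, 5 given an antisense oligonucleotide (ASO) against apoC-III and 4 given a control ASO, both at 50 mg/kg/week for 8 weeks. All 9 mice carried the same alleles, Apoe-/- Ndst1 f/f Alb-Cre+, so apoE was lacking in controls and treated mice alike. Alb-Cre recombines in hepatocytes, where it removes the heparan sulfate sulfotransferase NDST1. Age is not given in the sources used here, nor is the diet named beside the RNA sequencing.

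NRF2 is a transcription factor that KEAP1 hands to a CUL3 ubiquitin ligase for degradation. Electrophiles and oxidants modify cysteines of KEAP1, after which NRF2 accumulates and, paired with a small MAF protein, binds antioxidant response elements near genes for glutathione synthesis, thioredoxin reduction, quinone reduction and conjugation. Because this control acts on the protein, the mRNA of *Nfe2l2* or *Keap1* does not report NRF2 activity by itself, and no protein was measured here. In liver, catalase, superoxide dismutase and glutathione peroxidase 1 are abundant under basal conditions and remove superoxide and peroxides.

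None of the 10 genes passed the thresholds for a difference between apoC-III ASO and control ASO livers. This does not show that they were unchanged. Their changes ran from −0.22 to 0.57 on the log2 scale, with 6 genes higher and 4 lower on the apoC-III ASO. *Nqo1* and *Gclc* had the highest changes. In rescaled levels *Nqo1* was the only gene of the 10 whose groups separated once a single control liver, control ASO replicate 4, was left out. In the values as deposited its groups overlapped with or without that liver. *Nfe2l2* itself was among the steadiest of the genes tested after rescaling.

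The deposited unit is TPM, which counts a gene's transcripts per 1000000 transcripts of the library after correction for length. How many reads a liver had cannot be read from TPM, so depth is unknown and values carry no counting interval. The 7SL RNA genes took 64.0 to 83.6% of the TPM of a liver and mitochondrial rRNA 8.43 to 27.7%, which left nuclear protein-coding genes 1.94 to 8.64%. Hence the nuclear protein-coding genes of each liver were brought to a common sum of 1000000, and each liver was divided by a median-of-ratios factor, the median over genes of a liver's ratio to the geometric mean of the livers. Every level below is in these rescaled units unless TPM as deposited is named. Changes are differences in log2(level + 1) from limma, apoC-III ASO minus control ASO. They understate the change of low genes. A call required a change over 1.5-fold and, over the 11953 genes tested, an adjusted p (Benjamini-Hochberg) under 0.05. The limma p-values weigh the difference between groups against the spread among the livers within groups, an estimate that limma draws in part from all genes.

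*Apoc3*, which the ASO targets, was 87.4% lower in the treated group. Its levels were 334 to 623 on the apoC-III ASO and 3170 to 4293 on the control ASO, without overlap, with an exact two-sided permutation p = 0.0159, the smallest that 5 against 4 livers allow. *Apoe* was not at 0, at 23.2 to 66.4 over the 9 livers, and *Ndst1* stood at 4.81 to 11.6; which exons these reads came from was not analysed here. Control ASO replicate 4 stood apart from the other 8 livers: protein-coding genes held 1.94% of its TPM against 3.03 to 8.64%, and 13938 of them were above 0 against 14237 to 15172. The summed level of 5 erythroid genes (hemoglobin chains and *Alas2*) was 2183 in that liver and 949 in apoC-III ASO replicate 4, against 49.8 to 204 in the other 7. Summed levels of the 6 hepatocyte markers were 24807 to 54567 on the apoC-III ASO and 34229 to 48680 on the control ASO (1 of these genes was higher and 5 were lower). No marker of hepatocytes, erythroid cells, Kupffer cells, leukocytes, stellate cells, sinusoidal endothelial cells or cholangiocytes was called by limma, though only 3 of 6 leukocyte and 3 of 6 cholangiocyte markers were tested, and the neutrophil gene *S100a8* was listed at 0 in all livers. Of the 6 stellate cell markers 5 were lower, 2 of them (*Lrat* and *Dcn*) with an unadjusted p under 0.05, and their sums were 118 to 144 on the apoC-III ASO and 134 to 256 on the control ASO. The clock gene *Arntl* was at 11.1 to 30.9 in apoC-III ASO replicates 1 to 3 and at 0.320 to 2.75 in the other 6 livers. The part of these differences in the results below was not tested, except that values are given with and without control ASO replicate 4.

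Promoter sequences are shown first for the genes in which the core of the antioxidant response element was found. The motif searched was TGACNNNGC on both strands, in RefSeq windows (GRCm38.p6) of 300 bases, 250 before and 50 after each annotated start. Of the 10 genes, 9 had a window and 5 of them held a match. Counted over windows, 5 of 11 windows of these genes (45.5%) held the motif, against 4071 of 32851 windows of all genes (12.4%) and 14 of 81 windows (17.3%) of the other pathway genes listed below. A match describes the letters only; none of these stretches was assayed for binding. Capitals mark the match, each stretch reads 5′ to 3′ on the strand of its gene, and a match on the opposite strand appears as its reverse complement.
Nfe2l2, chr2:75704875-75704913, minus strand, match starting at −240 from the start: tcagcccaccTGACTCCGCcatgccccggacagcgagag
Gclm, chr3:122245403-122245451, plus strand, match starting at −134: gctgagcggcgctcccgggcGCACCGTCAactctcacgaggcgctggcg
Txnrd1, chr10:82859094-82859142, plus strand, 1 of 3 windows, match starting at −92: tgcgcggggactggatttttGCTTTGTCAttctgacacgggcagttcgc
Srxn1, chr2:152105542-152105570, plus strand, match starting at 29: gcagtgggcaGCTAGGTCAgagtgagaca
Sod1, chr16:90220686-90220734, plus strand, match starting at −56: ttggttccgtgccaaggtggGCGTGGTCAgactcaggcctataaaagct
The windows of *Keap1*, *Nqo1*, *Cat* and *Gpx1* held no match of these letters, which says nothing of NRF2 binding there or farther away, and *Gclc* had no window.

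*Nfe2l2* (ENSMUSG00000015839, GRCm38 chr2:75675513-75704641, minus strand) encodes NRF2 and is protein-coding, as are all 10 genes. Its levels were 40.6, 44.5, 47.7, 38.7 and 39.3 in the livers of apoC-III ASO replicates 1 to 5, and 49.2, 46.3, 49.7 and 37.4 in those of control ASO replicates 1 to 4. The groups overlapped, and the lowest liver was control ASO replicate 4. The change was −0.11 (SE 0.18, 95% interval −0.51 to 0.30, limma adjusted p = 0.969). The highest liver was 1.33 times the lowest, and the SD within groups lay at percentile 1.02 of the genes tested. *Keap1* (ENSMUSG00000003308, chr9:21229730-21239361, minus strand), the sensor that directs NRF2 to degradation, stood at 12.9, 18.4, 14.7, 11.2 and 11.3 on the apoC-III ASO and at 15.0, 13.5, 13.7 and 9.84 on the control ASO. Its groups overlapped, with the highest level in apoC-III ASO replicate 2 and the lowest again in control ASO replicate 4. The change of *Keap1* was 0.06 (SE 0.22, 95% interval −0.42 to 0.55, adjusted p = 0.992). For both regulators the lowest pair of livers were control ASO replicate 4 and apoC-III ASO replicate 4, those with the highest erythroid sums.

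Glutathione synthesis depends on glutamate-cysteine ligase, whose catalytic subunit is encoded by *Gclc* and whose modifier subunit is encoded by *Gclm*. *Gclc* (ENSMUSG00000032350, chr9:77754535-77794485, plus strand) stood at 114, 106, 275, 147 and 65.6 in apoC-III ASO replicates 1 to 5. In control ASO replicates 1 to 4 it stood at 96.7, 70.7, 77.5 and 109. Thus 3 of 5 treated livers lay above every control and 1 lay below every control. The group means were 142 ± 80.3 (SD, n = 5) and 88.5 ± 17.6 (n = 4), and the change was 0.53 (SE 0.35, 95% interval −0.24 to 1.30, limma adjusted p = 0.902). Without apoC-III ASO replicate 3, the highest liver, the change was 0.25.

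*Gclm* (ENSMUSG00000028124, chr3:122245557-122270732, plus strand) stood at 109, 47.0, 99.0, 144 and 97.4 on the apoC-III ASO and at 62.1, 118, 45.0 and 171 on the control ASO. Both groups spanned nearly the same range, with the highest levels in control ASO replicate 4 and apoC-III ASO replicate 4. The change was 0.11 (SE 0.41, 95% interval −0.79 to 1.002, limma adjusted p = 0.992). The subunits of the ligase did not share an order of livers, since *Gclc* peaked in apoC-III ASO replicate 3, where *Gclm* was near its group mean of 99.4. Over the 9 livers *Gclc* was the higher of the pair in 6, so their levels were not separated.

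In the thioredoxin system, *Txnrd1* (ENSMUSG00000020250, chr10:82833951-82897712, plus strand) encodes cytosolic thioredoxin reductase, a selenoprotein. It stood at 43.6, 26.7, 35.9, 40.6 and 31.5 on the apoC-III ASO and at 26.8, 35.0, 33.6 and 45.9 on the control ASO. The groups overlapped over nearly their whole ranges, and the change was 0.02 (SE 0.22, 95% interval −0.47 to 0.51, limma adjusted p = 0.998). *Srxn1* (ENSMUSG00000032802, chr2:152105516-152111376, plus strand) encodes sulfiredoxin, which restores overoxidized peroxiredoxins. Its levels were 8.81, 3.74, 1.27, 2.93 and 1.06 on the apoC-III ASO and 4.79, 2.53, 1.63 and 3.88 on the control ASO. *Srxn1* varied most of the 10 genes among livers, 8.33-fold from apoC-III ASO replicate 5 to replicate 1 of the same group. Its change was −0.06 (SE 0.44, 95% interval −1.03 to 0.91, adjusted p = 0.998).

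*Nqo1* (ENSMUSG00000003849, chr8:107388225-107403206, minus strand) encodes a quinone reductase that is often used as a readout of NRF2. Its levels were 3.26, 2.84, 3.15, 3.34 and 3.35 on the apoC-III ASO and 1.27, 1.25, 1.40 and 4.19 in control ASO replicates 1 to 4. All 5 treated livers lay above control ASO replicates 1 to 3 and below control ASO replicate 4. Over all 9 livers the change was 0.57 (SE 0.29, 95% interval −0.06 to 1.19, limma adjusted p = 0.883), which placed *Nqo1* at rank 956 of 11953 genes by p. Without control ASO replicate 4 the means were 3.19 ± 0.213 (SD, n = 5) and 1.31 ± 0.0841 (n = 3), a ratio of 2.44. The change was then 0.89 (SE 0.22, 95% interval 0.41 to 1.37), rank 33 of 12053, and with a limma adjusted p = 0.704 it was still not called. Its level was low: in TPM as deposited *Nqo1* was at 0.0965 to 0.235 on the apoC-III ASO and at 0.0404 to 0.102 on the control ASO, under the mean of 1 needed for a test. In TPM as deposited control ASO replicate 4 was the lowest of the 9 livers for *Nqo1*, and after rescaling it was the highest. Its median-of-ratios factor, by which its levels were divided, was 0.496, against 0.930 to 1.44 in the other livers. With the common sum but without these factors, it lay above the other controls and below every treated liver. The change of *Nqo1* over all 9 livers was then 0.93 (SE 0.29, limma adjusted p = 0.450), where 88.0% of all genes tested were higher.

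**Figure D1:**
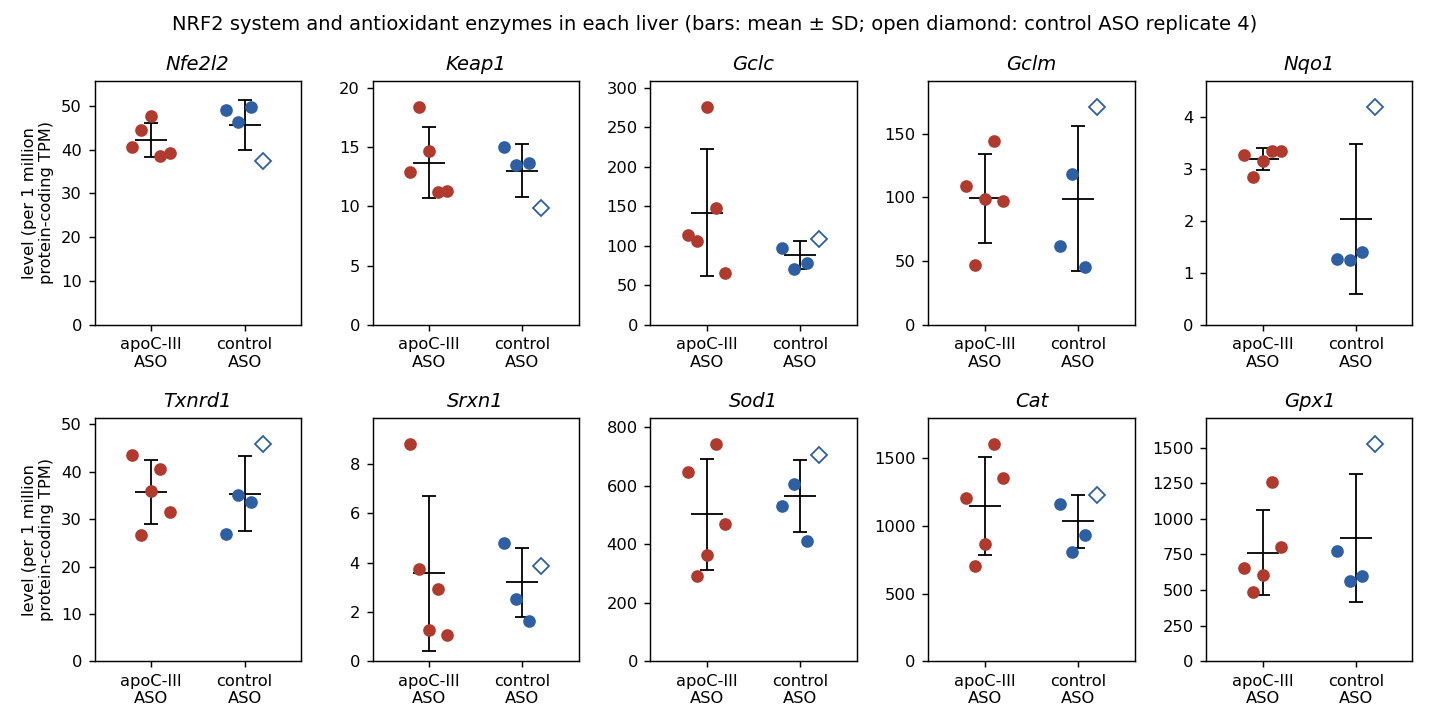
Level of each gene (vertical axis, per 1000000 of protein-coding TPM, divided by the median-of-ratios factor) in the 5 apoC-III ASO livers (red) and the 4 control ASO livers (blue); black bars are mean ± SD and the open diamond is control ASO replicate 4. The groups overlap for all 10 genes, and for *Nqo1* the overlap comes from the diamond at 4.19, while the other 3 controls lie at 1.25 to 1.40.

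The basal enzymes were the most abundant of the 10. *Sod1* (ENSMUSG00000022982, chr16:90220754-90226329, plus strand), cytosolic superoxide dismutase, stood at 647, 291, 364, 743 and 469.5 on the apoC-III ASO and at 532, 606, 412 and 706 on the control ASO. The groups overlapped, and the change was −0.22 (SE 0.30, 95% interval −0.88 to 0.44, limma adjusted p = 0.963). *Cat* (ENSMUSG00000027187, chr2:103453849-103485160, minus strand), the peroxisomal enzyme catalase, stood at 1204, 706, 864, 1605 and 1353 on the apoC-III ASO and at 1159, 810.4, 933 and 1227 on the control ASO. Both the lowest and the highest liver for *Cat* belonged to the apoC-III ASO group, and the change was 0.11 (SE 0.28, 95% interval −0.50 to 0.72, adjusted p = 0.988).

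*Gpx1* (ENSMUSG00000063856, chr9:108338903-108340343, plus strand) encodes the selenoprotein glutathione peroxidase 1. It stood at 653, 488, 608, 1255 and 800.1 on the apoC-III ASO and at 773, 563, 597 and 1526 on the control ASO. The highest pair of livers, 1 of each group, were those with the highest erythroid sums, and the remaining 7 lay between 488 and 800.1. The change of *Gpx1* was −0.14 (SE 0.35, 95% interval −0.90 to 0.63, limma adjusted p = 0.988) and turned to 0.18 without control ASO replicate 4. *Sod1* and *Gclm* were likewise highest in apoC-III ASO replicate 4 and control ASO replicate 4. In whole-liver RNA, fewer cells of a type and less RNA per cell cannot be told apart.

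**Figure D2:**
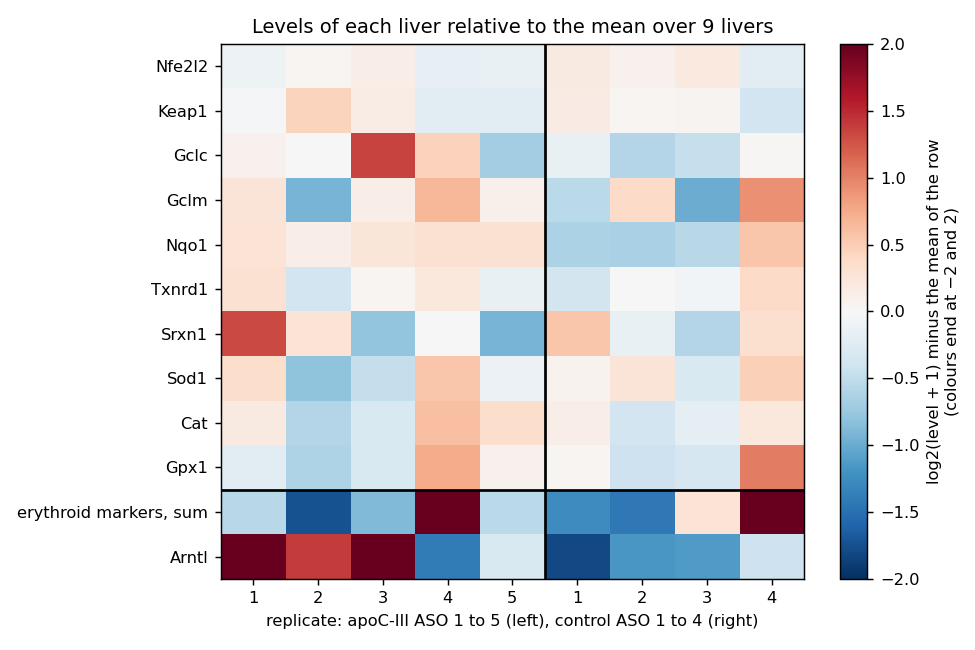
Level of each gene in each liver, as log2(level + 1) minus the mean of its row (color, ending at −2 and 2), with the sum of 5 erythroid genes and the clock gene *Arntl* below the line; columns are the 5 apoC-III ASO livers and then the 4 control ASO livers, in order of replicate. *Gpx1*, *Sod1* and *Gclm* are highest in replicate 4 of both groups, where the erythroid sum is 949 and 2183, and *Arntl* is highest in apoC-III ASO replicates 1 to 3.

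Since TPM is corrected for length, levels can be ordered between genes. The mean over 9 livers was 1096 for *Cat*, 807 for *Gpx1*, 529.97 for *Sod1*, 118 for *Gclc*, 99.2 for *Gclm*, 43.7 for *Nfe2l2*, 35.5 for *Txnrd1*, 13.4 for *Keap1*, 3.41 for *Srxn1* and 2.67 for *Nqo1*. The steps from *Sod1* to *Gclc*, from *Txnrd1* to *Keap1* and from *Keap1* to *Srxn1* held in 9 of 9 livers. The steps from *Cat* to *Gpx1*, from *Gpx1* to *Sod1* and from *Gclm* to *Nfe2l2* held in 8. Neighbors that did not keep their order were *Gclc* and *Gclm* (6 of 9 livers), *Nfe2l2* and *Txnrd1* (6 of 9), and *Srxn1* and *Nqo1* (5 of 9).

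Taking the 10 genes as a group, none was called by limma, which called 2 of the 11953 genes tested (0.0167%), both lower: *Apoc3* and *Anpep*. None had an unadjusted limma p under 0.05 in either direction, against 2.99% of all genes higher and 2.58% lower. None had groups without overlap, against 1.83% of all genes, 0.92% of them higher on the apoC-III ASO. The median change of the 10 was 0.04, and that of all genes was −0.00102. Without control ASO replicate 4 none was called (0.0249% of 12053 genes were). *Nqo1* was then the 1 gene of 10 with an unadjusted p under 0.05 and higher (2.82% of all genes) and the 1 whose groups did not overlap, again higher (2% of all genes). The median change became 0.16, with 7 higher and 3 lower.

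The intervals limit what can be said of each gene. For *Nfe2l2*, *Keap1* and *Txnrd1* the 95% interval stayed within 1.5-fold in both directions over all 9 livers. For *Gclc*, *Gclm* and *Srxn1* it reached 2.46-fold, 2.003-fold and 1.88-fold higher, so that rises of up to this size lay within the interval. For *Nqo1* the upper bound was 2.28-fold. These folds are of level + 1. For *Srxn1* and *Nqo1*, with mean levels of 3.41 and 2.67, larger rises of the level itself thus remain possible. With a pseudocount of 0.1 the change of *Nqo1* was 0.82 (SE 0.39). The direction depended on the scaling: in TPM as deposited, where 7 of the 10 were tested, all 7 were higher with a median of 0.19 beside 0.11 for all genes, and in rescaled values without the median-of-ratios factors all 10 were higher with a median of 0.49 beside 0.41. Both medians lay within 0.1 of the shift of all genes.

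**Figure D3:**
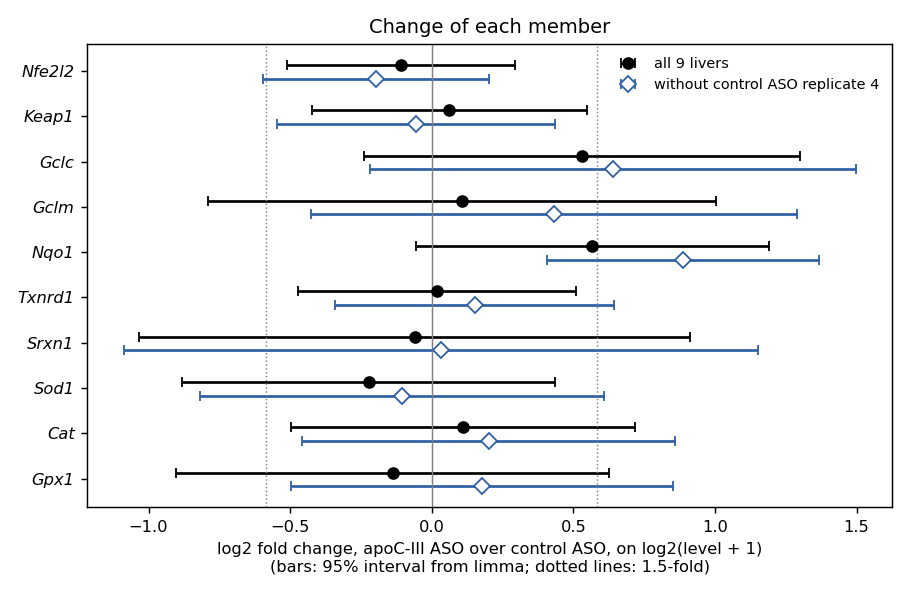
Change of each gene (horizontal axis, log2 fold change of apoC-III ASO over control ASO on log2(level + 1)) with its 95% interval from limma, over all 9 livers (black) and without control ASO replicate 4 (open diamonds); dotted lines mark 1.5-fold. Every interval over 9 livers crosses 0, and without that liver the interval of *Nqo1*, 0.41 to 1.37, lies above 0.

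Other genes of the pathway were counted by lists written from general knowledge, which include the 10 genes. Of the 11 genes that control NRF2, all tested, 5 were higher and 6 lower with a median of −0.01. *Sqstm1*, which encodes p62, a protein that sequesters KEAP1, was the 1 gene of them with an unadjusted p under 0.05. Its levels were 316, 222, 309.9, 273 and 279.9 on the apoC-III ASO and 225, 224, 217 and 144 on the control ASO. *Sqstm1* changed by 0.48 (SE 0.21, limma adjusted p = 0.878) and by 0.33 without control ASO replicate 4, its lowest liver. In 4 of 5 treated livers it lay above every control.

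Of the 10 genes for glutathione synthesis and recycling, 9 were tested, 4 higher and 5 lower, with a median of −0.02. *Glrx*, which encodes glutaredoxin, had the only unadjusted p under 0.05 among them. It stood at 7.64, 5.05, 4.51, 11.1 and 7.23 on the apoC-III ASO and at 6.74, 11.3, 15.4 and 24.3 on the control ASO, a change of −0.86 (SE 0.35, limma adjusted p = 0.878). The highest level of *Glrx* was again in control ASO replicate 4, and without it the change was −0.58 (adjusted p = 0.944).

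The 13 genes of the thioredoxin and peroxiredoxin systems counted 4 higher and 9 lower with a median of −0.06, and none had an unadjusted p under 0.05. The most abundant pair outside the 10 genes were *Prdx1*, a cytosolic peroxiredoxin, and *Txnip*, an inhibitor of thioredoxin. *Prdx1* ranged from 402 to 999 on the apoC-III ASO and from 583 to 1347 on the control ASO. *Txnip* ranged from 61.9 to 681 and from 62.3 to 1153, with its highest level in control ASO replicate 4, and its change turned from −0.04 to 0.73 without that liver. Without control ASO replicate 4 the list counted 9 higher and 4 lower with a median of 0.12, so its balance turned once that liver was left out. The list was not counted with any other liver left out.

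Of the 10 superoxide dismutases, catalase and glutathione peroxidases with their copper chaperone, 8 were tested, 5 higher and 3 lower, with a median of 0.02 and no unadjusted p under 0.05. *Gpx4*, the peroxidase of membrane lipid hydroperoxides, stood at 142, 102, 90.2, 582 and 155 on the apoC-III ASO and at 103, 87.4, 122 and 463 on the control ASO. As for *Gpx1*, replicate 4 of each group was far above the others. *Ccs*, the copper chaperone of SOD1, was steadier at 71.6 to 138 and 82.7 to 102. The 13 genes for selenoprotein synthesis and other selenoproteins counted 3 higher and 10 lower with a median of −0.13, again with no unadjusted p under 0.05. Among them *Selenop*, the plasma selenium carrier made by liver, ranged from 1215 to 3018 and from 1635 to 2623, and *Sephs2*, which makes selenophosphate, from 158 to 321 and from 203 to 257.

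Other NRF2 targets held the highest changes. Of 26 listed, 24 were tested, 15 were higher and 9 lower with a median of 0.14, and 4 had an unadjusted p under 0.05, all higher, where 49.8% of all genes tested were higher and 2.99% were higher with such a p. None was called. *Gsta1*, a glutathione S-transferase, stood at 26.3, 11.1, 22.7, 6.28 and 13.04 on the apoC-III ASO and at 2.55 and 1.86 in control ASO replicates 1 and 2, and it was listed at 0 in control ASO replicates 3 and 4. It was the only gene of the 6 lists whose groups did not overlap over all 9 livers, as they did not for 1.83% of all genes. *Gsta1* changed by 3.09 (SE 0.49, limma adjusted p = 0.176), the third smallest p of the table, a value that depends on the pseudocount of 1. Its sequence is close to that of *Gsta2*, so reads of the pair could be split between them. *Gsta2* stood at 33.5 to 269 and 31.0 to 118, with a change of 0.99 (adjusted p = 0.901).

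*Gstm4*, a transferase of the mu class, stood at 31.9, 22.2, 29.5, 32.1 and 21.2 on the apoC-III ASO and at 13.4, 11.8, 21.4 and 11.1 on the control ASO. Its groups met at control ASO replicate 3, and the change was 0.91 (SE 0.24, limma adjusted p = 0.774). *Ftl1*, ferritin light chain, stood at 2325, 1469, 1634, 2129.8 and 2112 on the apoC-III ASO and at 1072, 586, 1291 and 1676 on the control ASO, with a change of 0.82 (SE 0.31, adjusted p = 0.866). *Fth1*, ferritin heavy chain, is named after its values were seen: it stood at 1039, 347.3, 483, 523 and 562 on the apoC-III ASO and at 219.5, 137, 347.0 and 595 on the control ASO, with a change of 0.97 (SE 0.42, adjusted p = 0.878). For both ferritin chains control ASO replicate 4 was the highest control in these rescaled levels, and without it the groups did not overlap. Without the median-of-ratios factors it was the highest control for neither chain, and the groups did not overlap over all 9 livers. In that scaling 88.0% of all genes tested were higher.

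Without control ASO replicate 4, 25 of these other targets were tested, 19 higher and 6 lower, with a median of 0.35, and 7 had an unadjusted p under 0.05, all higher (2.82% of all genes). The 7 were *Nqo1*, *Gsta1*, *Gsta2*, *Gstm3*, *Gstm4*, *Ftl1* and *Fth1*. Groups did not overlap for 4 of them, *Nqo1*, *Gsta1*, *Ftl1* and *Fth1*, all higher (2% of all genes), and none was called. The remaining glutathione S-transferases of the list, named after their values were seen, were *Gsta3*, *Gsta4* and *Gstm1*. Without control ASO replicate 4 they changed by −0.35, −0.05 and 0.39. Over all 9 livers they changed by −0.45, −0.09 and 0.06. *Hmox1*, heme oxygenase 1, a further target of NRF2 named after its values were seen, stood at 6.19, 6.41, 4.81, 13.02 and 2.49 on the apoC-III ASO and at 4.29, 3.61, 5.47 and 10.6 on the control ASO, a change of 0.07 (adjusted p = 0.994). Its highest pair of livers was replicate 4 of each group.

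**Figure D4:**
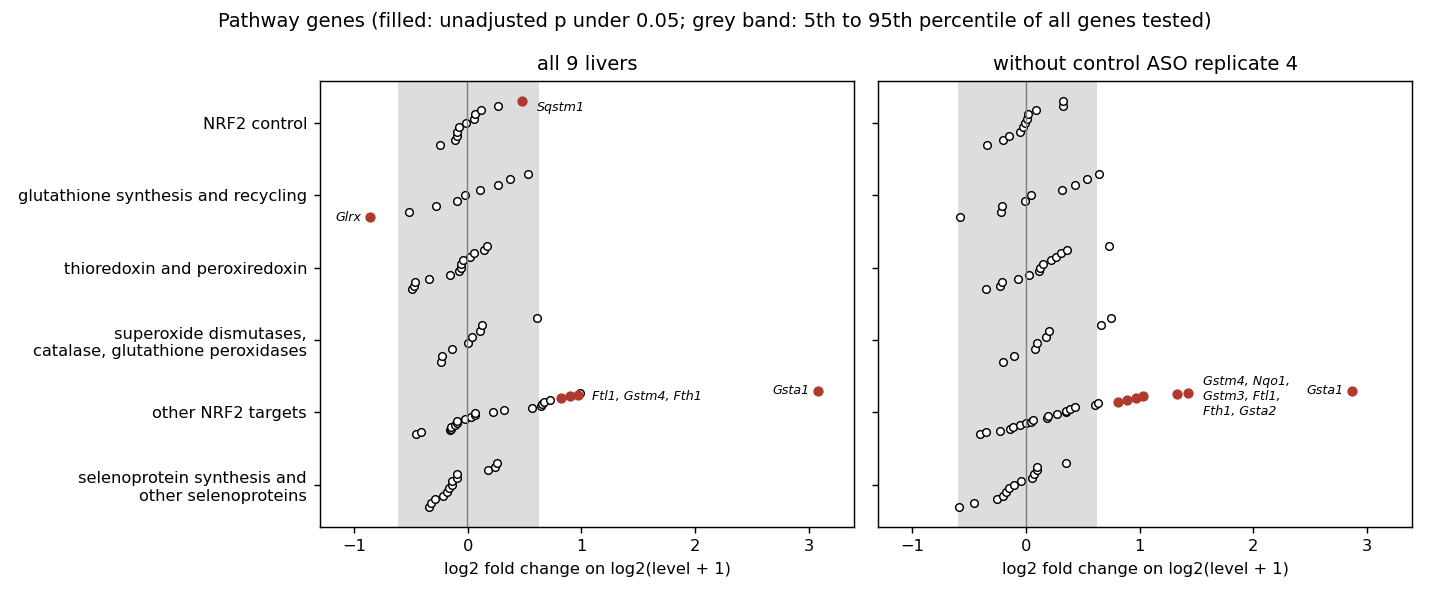
Change of each tested gene of the 6 lists (horizontal axis, log2 fold change of apoC-III ASO over control ASO on log2(level + 1)) over all 9 livers (left) and without control ASO replicate 4 (right); filled points have an unadjusted limma p under 0.05 and the grey band spans the 5th to the 95th percentile of all genes tested. The list of other NRF2 targets holds 4 filled points on the left and 7 on the right, with *Gsta1* at 3.09 and 2.87, and no point is called.

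By root mean square difference of log2(level + 1), centered per gene over the 9 livers, the genes nearest to *Nqo1* among 11952 were *Thoc3* (0.198), *Ndufv3* (0.200) and *Ube2e3* (0.200). *Thoc3*, a subunit of the THO complex, stood at 10.3 to 12.9 on the apoC-III ASO, at 6.03 to 8.40 in control ASO replicates 1 to 3 and at 16.4 in control ASO replicate 4. *Ube2e3*, a ubiquitin-conjugating enzyme, stood at 19.1 to 32.2, 15.3 to 17.8 and 36.8 in the same groups of livers. *Ndufv3*, a subunit of respiratory complex I, stood at 121 to 210.1, 94.99 to 116 and 205. As for *Nqo1*, control ASO replicate 4 was the highest control for each of the 3. This follows from the choice, since the 3 were picked for their likeness to *Nqo1* over these same livers. No other gene of the 10 or of the pathway lists was among these 3, which says little where only 3 of 11952 genes were kept. The measure, on log2(level + 1), also shrinks the differences of a low gene such as *Nqo1* more than those of *Ndufv3*.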

How the data were processed

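Livers of 5 apoC-III ASO and 4 control ASO mice were compared. The authors deposited 1 TPM value per gene and liver, credited in the submitters' notes to kallisto 0.43.1 and GRCm38. The study's methods name ribosome-depleted stranded single-end libraries, STAR, featureCounts and DESeq2, whose counts were not used. TPM are not counts, so a count test was not run. Of the 51912 gene identifiers, 51633 (99.46%) matched GENCODE M21. Each liver's 21780 nuclear protein-coding genes were set to sum to 1000000 and divided by median-of-ratios factors over 12256 genes above 0 in all livers. Genes with a mean of at least 1 (11953) were fitted with limma 3.58.1 in R 4.3.3 (lmFit, eBayes with trend) on log2(value + 1), without covariates, and adjusted by the Benjamini-Hochberg method. Tables were handled in Python 3.11.15 with pandas 2.3.3 and numpy 2.4.6, permutation tests used scipy 1.17.1, and plots matplotlib 3.10.9.

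The 10 genes, the lists and the scaling were chosen with earlier results of these data known. From each list the text names up to 3 further genes with an unadjusted p under 0.05, or else the 2 most abundant, and it names the 3 genes nearest to *Nqo1*. *Arntl*, *Lrat*, *Dcn*, *Anpep*, *Fth1*, *Gsta2*, *Gsta3*, *Gsta4*, *Gstm1*, *Gstm3*, *Hmox1*, *Osgin1* and *Me1* fall outside this rule and were chosen after their values were seen. Alternatives were other scalings, pseudocounts, filters, variance models and call rules, each liver left out in turn, a replicate block and exact permutation tests; 4 combinations without control ASO replicate 4 were added after seeing the data. The fit was tested on simulated data with known changes.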

Additional observations from a re-analysis of the deposited data

Results flagged for a closer look

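In 44 groups of livers, 5 values stood far from the rest of their group by Dixon's test, whose threshold is set for about 1 group in 20 by chance. The groups share the same livers, and some of their genes were picked by p or level in these data. That rate therefore does not hold for them as a set. Control ASO replicate 4 held 4 of the 5. In it *Nqo1* was at 4.19, with the other controls at 1.25 to 1.40, *Sqstm1* at 144, with the others at 217 to 225, *Txnip* at 1153, with the others at 62.3 to 199, and *Gpx4* at 463, with the others at 87.4 to 122. The remaining value was *Gpx4* at 582 in apoC-III ASO replicate 4, where the other treated livers lay at 90.2 to 155. The 10 genes described made up 20 of these groups, and *Nqo1* was their 1 such value. That count does not show whether the value of *Nqo1* arose by chance.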

How the results depend on the processing

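No call was gained by the 10 genes or the 6 lists in any of the 28 alternatives (24 planned, 4 added after seeing the data) in which a gene was tested. *Nqo1* and *Srxn1* were tested in 24 of them, *Keap1* in 25 and the other 7 genes in all 28. The exact permutation tests called no gene, *Apoc3* included, since the smallest p they allow, 0.0159 over 9 livers, did not pass the adjustment, so they say nothing of the 10 genes. Of 269 pairs of gene and alternative, 233 kept the direction and 36 turned it; *Nqo1* (0.45 to 1.23) and *Gclc* (0.25 to 1.01) never turned where tested. Where values turned, the cause was not tested.

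Scalings moved all genes: the median change of all genes was 0.11 in TPM as deposited, where 70.8% were higher, and 0.41 without the median-of-ratios factors, where 88.0% were. In TPM as deposited the log2 changes that turned were *Nfe2l2* 0.0209, *Sod1* 0.10, *Gpx1* 0.19, *Txnip* 0.31, *Selenop* 0.24 and *Sephs2* 0.0914. Without the factors they were *Nfe2l2* 0.36, *Srxn1* 0.31, *Sod1* 0.26, *Gpx1* 0.34, *Txnip* 0.44, *Selenop* 0.39 and *Sephs2* 0.29. With quantile normalization *Gpx1* was 0.11, *Txnip* 0.0892 and *Selenop* 0.17, and with array weights *Srxn1* was 0.0738 and *Txnip* 0.20.

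With each liver left out in turn, *Keap1* ranged from −0.0549 to 0.13, *Gclm* from −0.21 to 0.43, *Txnrd1* from −0.10 to 0.15, *Srxn1* from −0.39 to 0.17, *Cat* from −0.0250 to 0.26, *Gpx1* from −0.34 to 0.18, *Txnip* from −0.66 to 0.73, *Gpx4* from −0.33 to 0.66, *Ccs* from −0.10 to 0.12 and *Selenop* from −0.24 to 0.0793. Without control ASO replicate 4, *Keap1* was −0.0594 with a pseudocount of 0.1 and −0.0549 in the exact permutation test, *Gpx1* 0.18 in both, *Txnip* 0.74 and 0.73, and *Srxn1* 0.0318 in the permutation test. Without that liver in TPM as deposited, *Txnrd1* was −0.10, *Cat* −0.14, *Sqstm1* −0.0151, *Txnip* 0.39 and *Ccs* −0.20. Without it and the factors, *Nfe2l2* was 0.0226, *Srxn1* 0.22, *Sod1* 0.12, *Gpx1* 0.40, *Txnip* 0.95, *Selenop* 0.0181 and *Sephs2* 0.0483.

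Among all genes, 0 were called higher and 2 lower, with 665 at an unadjusted limma p under 0.05. Calls higher became 5 in TPM as deposited, 1 with factors over all genes and 1 in TPM as deposited without control ASO replicate 4. Calls lower became 6 in TPM as deposited, 1 without factors, 1 with factors over all genes, 1 without a filter, 1 without the trend, 3 with array weights, and 0 in the exact permutation test, also without control ASO replicate 4. With 1 liver left out, calls lower ranged from 1 to 3: 1 without apoC-III ASO replicate 1, 2, 3 or 4 or control ASO replicate 1 or 3, and 3 without apoC-III ASO replicate 5 or control ASO replicate 4.

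Livers of the 2 groups that share a number had correlations of 0.0264 to 0.191 in their deviations from the group means. Of these, 4 of 8 correlated best with their own number, among them replicate 4 of each group, and apoC-III ASO replicate 5 was left out. These correlations do not settle whether livers were paired. The labels name no pairs, so the numbers were not taken to pair the livers. A replicate block on livers 1 to 4 called 1 gene higher, none of the 10, and turned *Srxn1* to 0.17.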

Other observations

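A pair of NRF2 targets outside the 10 genes varied widely within the apoC-III ASO group. *Me1*, malic enzyme, which supplies NADPH, stood at 16.2, 23.8, 24.6, 71.8 and 47.7 in the treated livers in order of replicate and at 40.2, 40.4, 47.8 and 43.3 in control ASO replicates 1 to 4. *Osgin1*, a growth inhibitor induced by oxidative stress, stood at 199, 81.8, 235, 40.5 and 37.6 on the apoC-III ASO and at 64.0, 84.8, 54.7 and 35.8 on the control ASO. In apoC-III ASO replicates 1 to 3 *Arntl* was at 17.7, 11.1 and 30.9, and its part in these levels was not tested. Neither gene was called, with limma adjusted p-values of 0.936 for *Me1* and 0.919 for *Osgin1*.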
